A study of Mus musculus with 12 samples.

Results

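Day 14 was compared with day 0 in the interferon arm of an osteoblast differentiation series. The comparison uses 4 of the 12 RNA sequencing libraries of the study, the 2 labelled IFN day 14 and the 2 labelled IFN day 0, which were taken by their sample labels and described across 16259 expressed genes out of 55291 gene symbols counted. All libraries came from MC3T3-E1 cells, a mouse calvarial preosteoblast line with the genotype label WT, grown in alpha-MEM with serum. Day 0 is 2 days after confluence, when bone differentiation was induced. The IFN groups received mouse interferon beta from differentiation on, at a labelled 50 mg/L, an unusual unit for interferon beta that is printed as the labels give it, and the control groups had the same differentiation without it. Each arm was sampled at days 0, 14 and 21 with 2 libraries a group, and the labels do not say whether the day 0 cells of the IFN arm had met interferon. Time in differentiation and interferon exposure both separate day 14 from day 0 in this arm and cannot be told apart within it. The change of the IFN arm was therefore also tested against the change of the control arm. The labels do not say whether the 2 libraries of a group came from separate cultures, so p-values measure the spread between these libraries, which may be technical.

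Interferon beta is a type I interferon. It binds the receptor formed by Ifnar1 and Ifnar2, whose kinases Jak1 and Tyk2 phosphorylate Stat2; this joins Irf9 in the complex ISGF3, which binds the interferon-stimulated response element (ISRE) in the promoters of antiviral genes. Differentiating osteoblasts leave the cell cycle, lay down a matrix of type I collagen and then mineralize it, under the transcription factors Runx2 and Sp7. In bone, interferon beta is best known as a brake on osteoclast formation that osteoclast precursors make for themselves.

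The 4 libraries held 29772425 to 35425412 counts, and 21639 and 21762 genes were detected at day 0 against 23189 and 22650 at day 14. Levels are given as CPM, counts scaled to the same library total, in each library, in the order replicate 1 and replicate 2, and changes as log2 fold change ± SE. Between the libraries of a group, log2 CPM had a median SD of 0.08 at both days, and the pairs differed by more than counting noise, with a median chi-square per gene of 1.88 at day 0 and 1.82 at day 14. The markers of the line were present at day 0. Runx2 measured 105 and 107 CPM, Col1a1 5900.2 and 6339 CPM and Sp7 5.92 and 6 CPM, while osteocalcin (Bglap) was near 1 CPM at 1.21 and 0.747. CT010467.1, a clone gene known to hold ribosomal RNA-like sequence, ran from 107 and 693 CPM at day 0 to 2859.9 and 7240.2 CPM at day 14 (adjusted p = 0.096). In control it stood at 21075 and 1103 CPM at day 0, 8629 and 99.2 CPM at day 14 and 5914 and 148 CPM at day 21, with replicate 1 far above replicate 2 on each day. The part of this gene in the results was not tested. In bulk libraries, fewer cells of a kind and less RNA per cell cannot be told apart.

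The promoters below show the elements that go with the gene groups described later. They are the 250 bases before the start of 6 genes, from RefSeq on GRCm38.p6, written 5′ to 3′ on the gene's strand, with the matched element in capitals. For Isg15, Ifit1 and Rsad2 the capitals mark the core of the ISRE, GAAA repeated after any 2 bases, in either orientation (TTTC repeated). The Isg15 window (chr4:156200819-156201068, minus strand) holds 3 overlapping matches that begin at positions -78, -72 and -66, counted back from the start. The Ifit1 window (chr19:34640639-34640888, plus strand) holds matches at -104 and -85, and the Rsad2 window (chr12:26456453-26456702, minus strand) 1 at -120. For Cdc20 (chr4:118437344-118437593, minus strand) they mark the cell cycle homology region TTTGAA at -18, for Vcl (chr14:20929148-20929397, plus strand) the CArG box, the site of serum response factor, at -227, and for Gclm (chr3:122245307-122245556, plus strand) the core of the antioxidant response element, TGACNNNGC, at -134 on the opposite strand.
Isg15: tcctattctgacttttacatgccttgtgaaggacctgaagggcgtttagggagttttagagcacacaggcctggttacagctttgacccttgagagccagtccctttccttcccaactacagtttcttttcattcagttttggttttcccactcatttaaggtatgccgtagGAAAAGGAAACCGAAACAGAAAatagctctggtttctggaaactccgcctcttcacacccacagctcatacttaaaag
Ifit1: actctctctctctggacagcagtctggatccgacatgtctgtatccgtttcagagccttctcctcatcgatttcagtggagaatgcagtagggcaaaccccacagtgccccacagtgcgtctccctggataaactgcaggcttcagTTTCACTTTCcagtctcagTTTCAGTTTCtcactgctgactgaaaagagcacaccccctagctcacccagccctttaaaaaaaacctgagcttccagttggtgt
Rsad2: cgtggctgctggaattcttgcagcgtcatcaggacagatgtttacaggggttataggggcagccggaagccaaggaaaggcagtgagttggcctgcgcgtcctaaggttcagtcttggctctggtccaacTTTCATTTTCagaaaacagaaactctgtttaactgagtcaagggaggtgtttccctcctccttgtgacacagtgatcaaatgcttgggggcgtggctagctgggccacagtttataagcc
Cdc20: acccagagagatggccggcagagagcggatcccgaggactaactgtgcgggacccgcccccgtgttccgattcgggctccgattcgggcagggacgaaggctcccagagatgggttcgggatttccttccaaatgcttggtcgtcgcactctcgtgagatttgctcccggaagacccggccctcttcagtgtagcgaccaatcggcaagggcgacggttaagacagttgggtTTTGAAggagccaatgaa
Vcl: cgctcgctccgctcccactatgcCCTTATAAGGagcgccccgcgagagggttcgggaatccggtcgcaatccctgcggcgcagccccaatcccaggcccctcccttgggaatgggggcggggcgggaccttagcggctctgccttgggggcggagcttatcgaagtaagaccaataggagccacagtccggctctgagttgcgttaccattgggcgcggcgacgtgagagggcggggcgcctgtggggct
Gclm: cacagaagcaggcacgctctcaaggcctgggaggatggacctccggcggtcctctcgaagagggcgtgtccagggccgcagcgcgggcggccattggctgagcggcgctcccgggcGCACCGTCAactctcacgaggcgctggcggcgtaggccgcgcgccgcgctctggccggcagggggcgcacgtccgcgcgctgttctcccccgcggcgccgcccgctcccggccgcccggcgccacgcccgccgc

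Motifs were sought on both strands of windows of 300 bases, 250 before and 50 after each start. The RefSeq table gave such windows for 11208 of the 16259 genes tested, and shares below are of genes with a window. A gene held a motif when any of its windows did, so genes with more starts had more chances to match. The ISRE core stood in 3.75% of all genes with a window. Among genes higher at day 14 it stood in 11.6% of those at least 2-fold higher and 19.4% of those at least 8-fold higher. Among genes lower at day 14 the shares were 2.52% at 2-fold or more and 3.92% at 8-fold or more. The ISRE core stood in 26 of the 43 interferon-stimulated effectors with a window (60.5%) and in 5 of 19 genes of MHC class I presentation (26.3%). TTTGAA was found in 18 of 25 mitotic genes (72.0%) and 3 of 23 DNA replication genes (13%), against 14.9% of all genes with a window. It was also in 24.9% of genes at least 8-fold higher, 15.7% of those at least 8-fold lower and 5 of 13 bone matrix genes (38.5%). The CArG box was found in 6 of 16 YAP and cytoskeletal SRF targets (37.5%) and in 1.61% of all genes. The ER stress element is CCAAT and CCACG on either side of 9 bases and so contains the CCAAT box. This element was found in 7 of 24 ER chaperone genes (29.2%) and in 0.17% of all genes. TGACNNNGC was found in 6 of 19 iron and NRF2 genes (31.6%) and in 16.8% of all genes. The glucocorticoid response element, an inverted repeat around 3 bases, was found in 2 of 15 glucocorticoid targets (13.3%) and in 0.446% of all genes. A match describes the letters of a window and says nothing of binding in these cells.

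Most expressed genes differed between the days when judged by the spread of the IFN libraries, though many by small amounts. edgeR's quasi-likelihood test, fitted to the 6 libraries of the IFN arm with Benjamini-Hochberg adjustment over all genes, called 8715 of 16259 genes (53.6%) at an adjusted p below 0.05, of which 4576 (28.1%) rose and 4139 (25.5%) fell. "Rose", "fell" and "called" refer to this test. Many changes were small, with 4092 calls below 1.5-fold, and the median absolute log2 change of the called genes was 0.62. At least 2-fold changes were called for 2675 genes (16.5%), 1260 higher (7.75%) and 1415 lower (8.70%), and changes of at least 8-fold for 364 higher and 182 lower. In 12432 genes (76.5%) both libraries of 1 day lay above both of the other. The number of calls rests on which spread is used: with all 12 libraries in the fit, whose control replicates vary more, 1857 of 17289 genes (10.7%) were called, 895 (5.18%) higher and 962 (5.56%) lower. Counts or calls from that fit are given with the gene groups below. Counts of members that rose or fell are to be read beside the shares of all genes, 28.1% and 25.5% in the IFN fit and 5.18% and 5.56% with all 12 libraries. Among protein coding genes 61.2% of 12999 were called, and among long noncoding genes 27.4% of 1502.

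**Figure D1:**
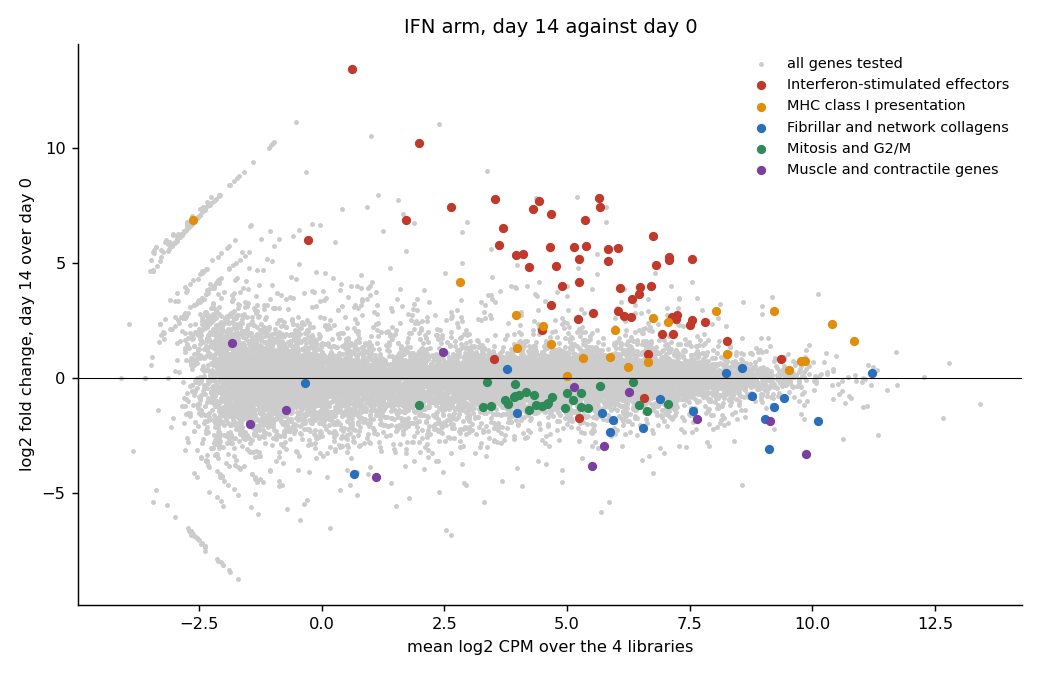
Log2 fold change of day 14 over day 0 in the IFN arm against the mean log2 CPM over the 4 libraries, for 16259 genes (grey) and 5 gene groups (colours). The interferon-stimulated effectors and MHC class I genes lie above 0, apart from Ifi27 and Ifitm1, while the mitotic genes and most collagens and contractile genes lie below.

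The genes with the largest changes were taken at each end. The 10 highest, among called genes without overlap whose log2 CPM averaged at least 1, were Ifi209, Ifi214, Oas1g, Ifi213, Tarm1, Ifi206, Ifi208, Oas2, Oas3 and Ccbe1. Of these, 5 belong to the Ifi200 family of DNA sensors and 3 to the oligoadenylate synthetases, which make the signal that activates RNase L. Ifi206 (chr1:173468485-173491041, minus strand) measured 2.69 and 2.05 CPM at day 0 and 559 and 559.9 CPM at day 14, a log2 change of 7.90 ± 0.08. Ifi209 went from 0.121 and 0.0553 CPM to 192 and 193 CPM and Ifi213 from 1.12 and 0.0553 CPM to 286 and 297 CPM. Ifi214 had 2 counts at day 0 and 3211 at day 14, a ratio of 1646 with an exact 95% counting interval of 455 to 13597. Reads of these close copies may have been split between them by the counting, so the values of single members are uncertain. The other 2 of the 10 were Tarm1, a myeloid-type immunoglobulin receptor, at 0.0604 and 0.166 CPM and then 30.4 and 29.5 CPM, and Ccbe1, a secreted protein of lymphatic development, at 0.121 and 0.221 CPM and then 39 and 37.1 CPM. Both also rose in the control arm, with log2 changes of 5.41 ± 0.79 and 5.65 ± 0.33.

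At the other end stood Sfrp2, Slc26a7, Fosb, Ppbp, Dio2, Fos, Atp1b1, Carmn, Pgm5 and Tmem252. Sfrp2, a secreted binder of Wnt proteins (chr3:83766321-83774316, plus strand), measured 62 and 68.5 CPM at day 0 and 0.3 and 0.908 CPM at day 14, a log2 change of -6.79 ± 0.20 (adjusted p = 1.1e-18). The anion exchanger Slc26a7 went from 62.5 and 64.4 CPM to 1.03 and 0.195 CPM, and Dio2, the deiodinase that activates thyroid hormone, from 61.2 and 67.6 CPM to 1.96 and 1.07 CPM. Atp1b1, a sodium pump subunit, went from 21.4 and 20.4 CPM to 0.762 and 0.324 CPM. Only called genes without overlap were eligible, so the day 14 libraries lay below the day 0 libraries in each of the 10 by choice. In the control arm, Sfrp2, Slc26a7 and Atp1b1 were also called lower, with log2 changes of -4.44 ± 0.89, -4.63 ± 0.72 and -4.50 ± 0.53. Of the 10, the calls of Fos (adjusted p = 0.13) and Pgm5 (adjusted p = 0.075) were lost with all 12 libraries. Genes with predicted or clone names were not named; they made up 268 of the 1260 genes at least 2-fold higher and 269 of the 1415 lower.

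Of the genes with large shifts in CPM, picked after the values were seen, fibronectin (Fn1) went from 15955 and 16277 CPM to 7469 and 7221 CPM and Ccn3, a matricellular protein of the CCN family, from 1856 and 1918 CPM to 79.1 and 72.1 CPM. Ferritin heavy chain (Fth1) went from 5632 and 5581 CPM to 9048 and 8833 CPM, the GPI-anchored Ly6e from 172 and 169 CPM to 1940.2 and 1970.1 CPM, the large E3 ligase Rnf213 from 172 and 169 CPM to 1466 and 1504 CPM, and Hmga2, an architectural chromatin protein of proliferating mesenchyme, from 123 and 122 CPM to 1185 and 1211 CPM. The 10 most abundant genes took 6.44% and 6.48% of the counts at day 0 and 4.69% and 5.09% at day 14. Of these shifts the call of Fth1 was lost with all 12 libraries (adjusted p = 0.11).

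Stat2 and Irf9, transcription factors below the interferon receptor, rose, and the receptor subunits moved by far less. Ifnar1 (chr16:91485238-91507441, plus strand) measured 89 and 93 CPM at day 0 and 72.2 and 62.9 CPM at day 14, a log2 change of -0.42 ± 0.07, which was not called with all 12 libraries (adjusted p = 0.27). Ifnar2 measured 36.5 and 40.5 CPM and then 34.6 and 37.9 CPM and did not pass the test (adjusted p = 0.49). Stat2 (chr10:128270559-128292849, plus strand) went from 50.4 and 37.9 CPM to 809 and 803 CPM, a log2 change of 4.20 ± 0.17 (adjusted p = 0.00011), and Irf9, its partner in ISGF3, from 15.8 and 12 CPM to 111 and 110.2 CPM, a change of 3.01 ± 0.09. The libraries of the 2 days did not overlap for either gene, as for 76.5% of all genes tested. Usp18, the feedback inhibitor that blocks the receptor, stood at 3.41 and 1.19 CPM at day 0 and 312 and 319 CPM at day 14, a log2 change of 7.13 ± 0.33. Other inhibitors went down: Socs2 from 65.6 and 65.5 CPM to 29.7 and 27.1 CPM and Socs3 from 58.4 and 62.4 CPM to 45.2 and 43.2 CPM, neither called with all 12 libraries. Of the 19 receptors, kinases, STATs and inhibitors tested, 6 rose and 7 fell, with a median log2 change of -0.08 against 0.02 for all genes; 3 rose and 1 fell with all 12 libraries.

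Of the 6 interferon regulatory factors tested, 5 rose, with a median log2 change of 1.25, and 4 rose with all 12 libraries. Irf7 (chr7:141262706-141266481, minus strand), the factor that amplifies type I interferon production, had the largest change: 5.5 and 3.1 CPM at day 0 and 719 and 742 CPM at day 14, which is 173-fold and a log2 change of 7.43 ± 0.23 (adjusted p = 5.8e-05). Irf5 went from 12.2 and 12 CPM to 32.9 and 31.3 CPM. Irf3, the factor that cells hold ready before interferon is seen, measured 42.1 and 39.9 CPM and then 36.2 and 37.9 CPM and did not pass the test (adjusted p = 0.19). At day 0, replicate 1 of the IFN arm was above replicate 2 for several of these genes, as in Irf7, Usp18 and Oas2 (5.41 and 1.83 CPM), and by less than the distance to day 14.

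Nearly the whole list of interferon-stimulated effectors rose. Of 58 tested, 56 rose and 2 fell, and 54 of the rises were at least 2-fold; the median log2 change was 4.86 in this arm and 0.57 in the control arm. In the 12-library fit 54 rose and 2 fell. Summed over the list, the level was 1991 and 1973 CPM at day 0 and 17776 and 18070.5 CPM at day 14, while the control arm had 1227 and 1875 CPM at day 14. The ubiquitin-like modifier Isg15 (chr4:156199424-156200818, minus strand), whose promoter is shown above, measured 6.62 and 5.98 CPM and then 221 and 231 CPM, a log2 change of 5.18 ± 0.11 (adjusted p = 1.1e-13). Ifit1 (chr19:34640871-34650009, plus strand), which binds viral RNA caps, went from 25.3 and 18.6 CPM to 844 and 850.3 CPM, 39-fold, and Rsad2 (viperin), from 2.42 and 0.858 CPM to 257 and 264 CPM. Ifit3 and its copy Ifit3b, between which reads may be split, went from 35.2 and 27.9 CPM to 1118 and 1144 CPM and from 10.3 and 9.21 CPM to 324 and 344 CPM.

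The oligoadenylate synthetases were among the genes with the largest folds. Oas2 (chr5:120730333-120749853, minus strand) stood at 788 and 810.2 CPM at day 14, a log2 change of 7.82 ± 0.42. Oas3 went from 0.997 and 0.553 CPM to 179.6 and 159.8 CPM and Oas1g from 0.211 and 0 CPM to 124 and 124 CPM. Oasl1, named after its values were seen, had 0 counts at day 0 and 2679 at day 14, at least 916-fold higher with a floor of 3 counts over the day 0 group. Tgtp1, an immunity-related GTPase, went from 2.14 and 0.719 CPM to 131 and 124 CPM. The 2 members that fell were Ifi27, from 72.4 and 66.6 CPM to 22.1 and 19.2 CPM, a log2 change of -1.74 ± 0.09, and the antiviral membrane protein Ifitm1, from 125 and 133 CPM to 71.8 and 69.2 CPM. At day 21 the list stood lower than at day 14, at 11699 and 12051 CPM in sum, with 42 members lower and 4 higher in the test of day 21 against day 14, which called 4794 of all genes (29.5%), 2594 of them higher.

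Genes for presenting peptides on MHC class I rose as well, 21 of 22 tested, 14 of them at least 2-fold, with a median log2 change of 1.58 against 0.31 in the control arm; 12 rose with all 12 libraries. The heavy chain H2-K1 (chr17:33996017-34000347, minus strand) measured 206 and 223 CPM at day 0 and 1672 and 1609.9 CPM at day 14, a log2 change of 2.95 ± 0.05 (adjusted p = 4.2e-29). The nonclassical H2-T22 went from 95 and 97.8 CPM to 714 and 734 CPM and H2-Q4 from 1.72 and 1.58 CPM to 30.6 and 28.5 CPM. Among members named after their values were seen, the light chain B2m went from 1042 and 1066 CPM to 3254 and 3266 CPM, the peptide transporter Tap1 from 57.2 and 57 CPM to 303 and 316 CPM, the immunoproteasome subunit Psmb9 from 6.55 and 5.39 CPM to 39.7 and 40.4 CPM, and Nlrc5, the transactivator of the class I genes, from 28.4 and 32.7 CPM to 128 and 129.5 CPM. H2-M3 did not pass the test, at 27.9 and 34.2 CPM and 32.4 and 33 CPM (adjusted p = 0.5). Summed, the list went from 4609.9 and 4687 CPM to 13586 and 13609 CPM and stood at 11564 and 11969 CPM at day 21, when 17 members were lower than at day 14. The H2 genes are close copies and their single values are uncertain.

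**Figure D2:**
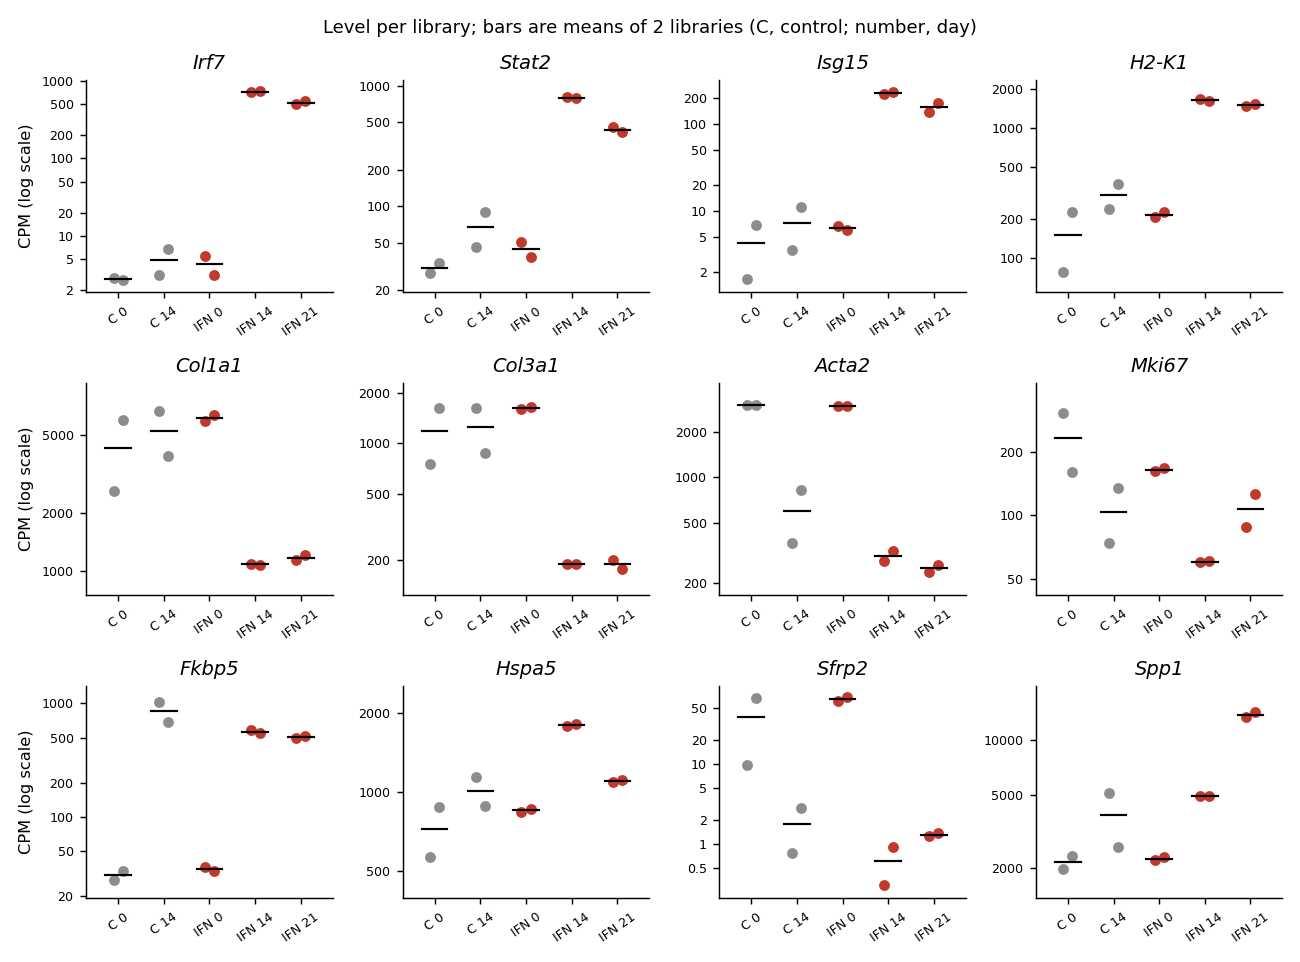
CPM of 12 genes in each library (points, log scale) of control (C, grey) and IFN (red) at the days given, with the mean of 2 libraries as a bar. Irf7, Stat2, Isg15 and H2-K1 are high only in the IFN libraries of days 14 and 21 among the 5 groups drawn, Col1a1 and Col3a1 are low in the same libraries, and Acta2 and Fkbp5 move in the same direction in both arms by day 14.

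Chemokines and acute phase genes were mixed. Of 29 tested, 18 rose and 5 fell, with a median log2 change of 0.30; 7 rose and 2 fell with all 12 libraries. Cxcl10 (chr5:92346638-92348889, minus strand), the ligand of Cxcr3 that draws T cells, went from 8.88 and 7.22 CPM to 124 and 132 CPM, a log2 change of 4.01 ± 0.09 (adjusted p = 8.6e-26). Complement C4b went from 7.34 and 6.78 CPM to 196 and 194 CPM, and lipocalin 2 (Lcn2), an iron-siderophore binder, from 4.74 and 4.34 CPM to 70.0 and 74.5 CPM. A pair of chemokines went the opposite way, the neutrophil attractant Cxcl5 from 128 and 157 CPM to 15 and 20.0 CPM, and Cxcl12, which holds hematopoietic stem cells in the marrow, from 431 and 455 CPM to 142 and 146 CPM. Complement C3 went from 633 and 667 CPM to 390.5 and 382 CPM, a fall not called with all 12 libraries (adjusted p = 0.33). Lcn2 and C4b were called higher in the control arm too, with log2 changes of 4.40 ± 0.57 and 2.87 ± 0.52, and Cxcl10 stood there at 10.3 and 6.82 CPM at day 0 and 2.04 and 5.24 CPM at day 14.

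The signals by which osteoblasts steer osteoclasts changed in both directions, 3 of 8 tested rising and 5 falling, and 2 rising with all 12 libraries. Il34, a ligand of the macrophage receptor Csf1r, went from 9.36 and 10.8 CPM to 38.6 and 38 CPM, a log2 change of 1.94 ± 0.10, and Csf1, the other ligand, from 1143 and 1166 CPM to 1399 and 1386 CPM. Osteoprotegerin (Tnfrsf11b), the decoy receptor for RANKL, went from 57.8 and 55.3 CPM to 19.2 and 21.1 CPM, and Sema3a, which restrains osteoclasts, from 293 and 299 CPM to 93.5 and 87.3 CPM. Efnb2 went from 14.3 and 14.9 CPM to 6.48 and 8.34 CPM, and Cthrc1, a secreted collagen-repeat protein, rose from 12.7 and 14.7 CPM to 31.3 and 30.9 CPM. RANKL itself (Tnfsf11) had 0 counts in all 4 libraries. The calls of Csf1, Tnfrsf11b, Sema3a and Efnb2 were lost with all 12 libraries, with adjusted p between 0.082 and 0.56.

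The transcription factors of the osteoblast lineage moved apart. Runx2 (chr17:44495987-44814797, minus strand), the master factor, was nearly level, at 105 and 107 CPM and then 96.2 and 93.5 CPM, a log2 change of -0.15 ± 0.05 (adjusted p = 0.022). Sp7 (osterix; chr15:102356606-102367182, minus strand), which acts after Runx2, went from 5.92 and 6 CPM to 11.3 and 13.2 CPM, a log2 change of 1.05 ± 0.15. Dlx5, a homeobox factor upstream of both, went from 18.8 and 20.2 CPM to 8.14 and 9.54 CPM. Msx2 fell from 9.42 and 12 CPM to 6.34 and 6.65 CPM, while Cebpb rose from 156 and 161 CPM to 481 and 476 CPM and Atf4, the factor of amino acid supply and stress, from 311 and 329 CPM to 526 and 496 CPM. Of 14 tested, 3 rose and 7 fell, with 4 falls without day 0 replicate 2 and 4 without day 14 replicate 1. Over all genes 28.1% rose and 25.5% fell. In the 12-library fit 1 of the 14 rose and 1 fell (Cebpb and Dlx5), beside 5.18% and 5.56% of all genes. The calls of Runx2, Sp7, Msx2 and Atf4 were lost there, at adjusted p from 0.095 to 0.7. Sp7 was called higher in the control arm, at 3.91 and 6.67 CPM and then 16.2 and 28.4 CPM, and the difference between the arms was not called (adjusted p = 0.49).

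Sox9 (chr11:112782224-112787760, plus strand), the factor of cartilage fate that the study's title links to type I interferon, rose in this arm. It measured 104 and 116 CPM at day 0, 189.9 and 180.4 CPM at day 14 and 319 and 282 CPM at day 21, and its log2 change to day 14 was 0.76 ± 0.06 (adjusted p = 9.0e-10). The call was lost with all 12 libraries (adjusted p = 0.059). The control libraries had 174 and 106 CPM at day 0 and 175 and 143 CPM at day 14, which overlap, and the difference between the arms was 0.56 ± 0.32, which was not called (adjusted p = 0.55). Of 7 chondrocyte genes tested, 2 rose and 2 fell, beside 28.1% and 25.5% of all genes. Runx3 went from 47 and 47.4 CPM to 65.1 and 68.4 CPM. Col2a1, the collagen of cartilage, went from 8.67 and 9.46 CPM to 5.75 and 5.29 CPM. Trps1 went from 120.1 and 115 CPM to 78.6 and 77.4 CPM. In the 12-library fit edgeR called 0 of the 7, with 3 at an unadjusted p below 0.05.

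Type I collagen fell. Col1a1 (chr11:94936224-94953042, plus strand), the major chain of bone collagen, measured 5900.2 and 6339 CPM at day 0 and 1089 and 1082 CPM at day 14, 5.59-fold less, a log2 change of -2.48 ± 0.05 (adjusted p = 6.3e-28). Col1a2 (chr6:4504814-4541544, plus strand) went from 11677 and 11954 CPM to 3633 and 3471 CPM, a log2 change of -1.72 ± 0.04. Sparc (osteonectin), which binds collagen and calcium, went from 1866 and 1918 CPM to 1154 and 1176 CPM. Decorin (Dcn), a proteoglycan of the matrix, fell further, from 475 and 488 CPM to 57.3 and 64.4 CPM. So did the proteoglycan osteomodulin (Omd), from 21.4 and 19.2 CPM to 3.19 and 1.85 CPM. In all 5 genes the day 14 libraries lay below those of day 0, though 76.5% of all genes tested had no overlap in one direction or the other. Decorin and osteomodulin were named as the called members at the low end of their list, and its other proteoglycans are not reported here. The 5 calls held with all 12 libraries. In the control arm Col1a1 stood at 2573 and 5953 CPM at day 0 and 6607 and 3892 CPM at day 14, so the 2 control days overlapped.

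Bone matrix proteins other than type I collagen moved in both directions. Osteopontin (Spp1; chr5:104435118-104441050, plus strand), which binds integrins and mineral, went from 2223 and 2294 CPM to 4945 and 4967 CPM, a log2 change of 1.15 ± 0.04, and further to 13213 and 14051 CPM at day 21. Matrix Gla protein (Mgp), an inhibitor of mineralization, went from 292 and 294 CPM to 624 and 619 CPM, and tenascin W (Tnn) from 2.14 and 2.66 CPM to 15.1 and 12.4 CPM. Bone sialoprotein (Ibsp; chr5:104299171-104311469, plus strand) had 2 counts at day 0 and 102 at day 14, a ratio of 52.3 with a 95% counting interval of 14.1 to 438, and its 2 day 14 libraries differed, at 2.26 and 0.616 CPM. The osteocalcin genes stayed low: Bglap measured 1.21 and 0.747 CPM and then 0.871 and 0.843 CPM (adjusted p = 0.78), and Bglap2 2.81 and 3.93 CPM and then 2.64 and 2.5 CPM (adjusted p = 0.23). These neighbouring copies share sequence, and reads may be split among them. The whole list of 18 bone matrix genes tested includes Col1a1, Col1a2, Sparc, Dcn and Omd, described above. Of the 18, 5 rose and 9 fell, with a median log2 change of -0.38 in this arm and 0.12 in the control arm. With all 12 libraries 3 rose and 6 fell, and the call of Mgp was lost (adjusted p = 0.18).

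Of 11 mineralization genes tested, 4 rose and 3 fell by day 14, beside 28.1% and 25.5% of all genes. Both numbers became smaller in some of the fits that left out 1 library. Alkaline phosphatase (Alpl; chr4:137741733-137796384, minus strand), which frees phosphate from pyrophosphate, measured 3.29 and 2.43 CPM and then 4.22 and 4.09 CPM, a log2 change of 0.55 ± 0.21 (adjusted p = 0.03), and its call was lost with DESeq2 (adjusted p = 0.059) and without day 0 replicate 2, day 14 replicate 1 or day 14 replicate 2 (adjusted p = 0.32, 0.11 and 0.077). In the control arm Alpl went from 0.554 and 2.95 CPM to 10.6 and 20.1 CPM (adjusted p = 0.053). The phosphate transporters Slc20a1 and Slc20a2 rose from 56.5 and 50.7 CPM to 110.2 and 104 CPM and from 34.9 and 36.1 CPM to 59 and 57.4 CPM, and the matrix vesicle phosphatase Phospho1 from 2.96 and 2.93 CPM to 3.81 and 5.81 CPM. The pyrophosphate exporter Ank went down from 193 and 199 CPM to 143 and 145 CPM and stood at 410.1 and 426 CPM at day 21. Dmp1 (chr5:104202613-104214102, plus strand), a matrix protein of osteocytes, was also lowest at day 14, with 76.1 and 82.7 CPM at day 0, 15.5 and 20.4 CPM at day 14 and 451 and 464 CPM at day 21; its log2 change to day 14 was -2.14 ± 0.10. With all 12 libraries only Slc20a2 kept its call among these genes, and that of Dmp1 had an adjusted p of 0.23. From day 14 to day 21, 10 of the 11 mineralization genes rose, against 16% of all genes.

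Among the osteocyte genes 3 of 7 tested rose and 4 fell, beside 28.1% and 25.5% of all genes. Irx5, a homeobox factor, went from 90.7 and 93.7 CPM to 24.8 and 21 CPM, a log2 change of -1.99 ± 0.09, and the chemokine scavenger Ackr3 from 37.3 and 39 CPM to 110.0 and 115 CPM; these were the 2 calls that held with all 12 libraries. The actin capper Capg and the chaperone Hyou1 rose, with log2 changes of 0.54 ± 0.05 and 0.60 ± 0.05, and podoplanin (Pdpn), an early osteocyte marker, fell by 0.15; none of these 3 was called with all 12 libraries. Sclerostin (Sost), the secreted Wnt inhibitor that defines osteocytes, had 0 counts in all 4 libraries, and Mepe had 1 at day 0 and 0 at day 14.

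Collagens beyond type I mostly fell, 14 of 19 tested, 11 of them at least 2-fold, while 4 rose; the median log2 change was -1.43, against 0.51 in the control arm. In the 12-library fit 11 fell. Col3a1, the fibril collagen of loose connective tissue (chr1:45311538-45349706, plus strand), measured 1607 and 1651 CPM at day 0 and 189.7 and 189 CPM at day 14, a log2 change of -3.09 ± 0.06 (adjusted p = 1.7e-26). Col11a1, which nucleates thin fibrils, went from 129 and 135 CPM to 27.2 and 25.1 CPM, and Col8a1, a short-chain network collagen, from 192 and 207 CPM to 46.6 and 42.8 CPM. Those that rose did so by less, such as the basement membrane chain Col4a1, from 319.5 and 333 CPM to 441 and 434 CPM, and Col6a3, from 2188 and 2225 CPM to 2571 and 2608 CPM; neither was called with all 12 libraries. The summed level of the list was 10857 and 11131 CPM at day 0, 6083 and 5921 CPM at day 14 and 6972 and 6953 CPM at day 21. In control it was 7051 and 11094 CPM at day 0 and 14500.1 and 12675 CPM at day 14.

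Enzymes that modify collagen mostly fell by small amounts, 16 of 25 tested, with 5 rising and a median log2 change of -0.24; 2 rose and 5 fell with all 12 libraries. The prolyl hydroxylase subunit P4ha3 went from 148 and 146 CPM to 43.8 and 36 CPM, the procollagen peptidase Adamts2 from 125 and 127 CPM to 43.4 and 40.1 CPM and P3h2 from 37.8 and 33.8 CPM to 14.3 and 14.8 CPM. Against them, 2 lysyl oxidases, which cross-link collagen, rose: Lox from 608 and 629.9 CPM to 1451 and 1422 CPM, a log2 change of 1.23 ± 0.04, and Loxl3 from 82.5 and 79.9 CPM to 239.7 and 242 CPM, a change of 1.58 ± 0.05. P4ha2 rose from 78.3 and 77.5 CPM to 126 and 116 CPM, which like the fall of P3h2 was not called with all 12 libraries. Lox also rose in the control arm, from 803 and 623 CPM to 4473 and 2285 CPM.

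Matrix metalloproteinases and their inhibitors split by member, with 4 of 18 tested rising and 11 falling and a median log2 change of -0.57; 3 rose and 8 fell with all 12 libraries. Mmp13, the collagenase of bone and a Runx2 target, went from 11.6 and 14.7 CPM to 75.4 and 68.7 CPM, a log2 change of 2.46 ± 0.31 (adjusted p = 0.0077), a call lost when either day 0 library or day 14 replicate 1 was left out (adjusted p from 0.052 to 0.062). Mmp11 rose from 70.7 and 73.3 CPM to 143 and 149.9 CPM. Mmp3 went from 18.5 and 22.3 CPM to 3.02 and 2.27 CPM and the membrane-bound Mmp16 from 97.2 and 100.1 CPM to 20.8 and 22.1 CPM. Of the inhibitors, Timp1 rose from 121 and 129.9 CPM to 319.9 and 359.8 CPM, and Timp3, which sits in the matrix, fell from 3933 and 3997 CPM to 578 and 671 CPM, a log2 change of -2.65 ± 0.06. Timp3 and Mmp13 moved the same way in the control arm, by -2.45 ± 0.50 and 3.85 ± 0.33.

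**Figure D3:**
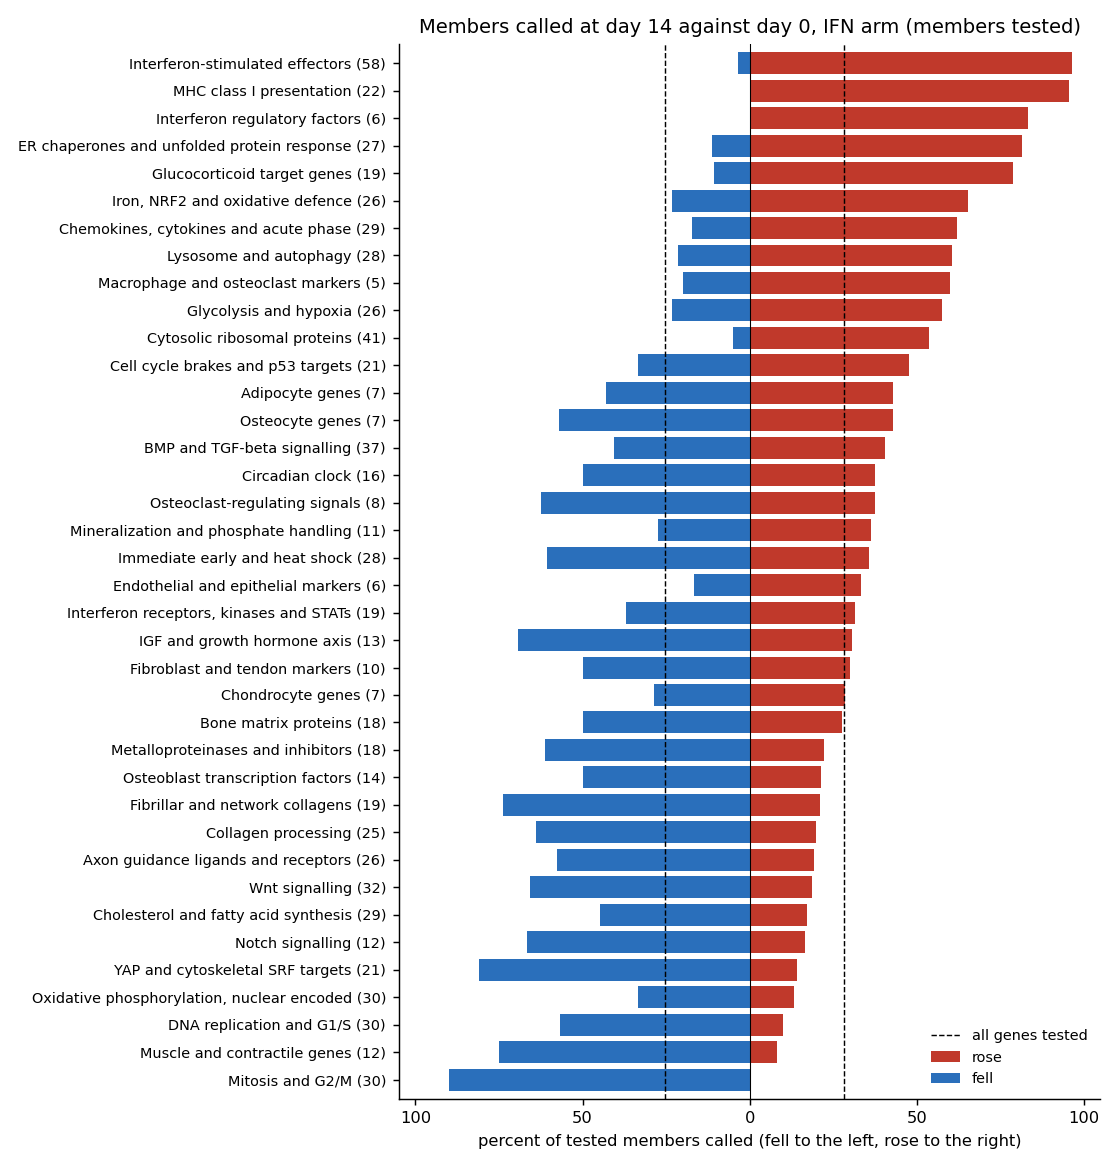
Share of the tested members of each of 38 gene groups that rose (red, right) or fell (blue, left) from day 0 to day 14 in the IFN arm, in percent, with the number tested in brackets; dashed lines give the share of all 16259 genes, 28.1% and 25.5%. The interferon-stimulated, MHC class I and interferon regulatory factor groups have the highest shares that rose, and the mitotic group, with 27 of 30, the highest that fell.

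Most contractile genes fell. Of 12 contractile genes tested 9 fell and 1 rose, with a median log2 change of -1.82, against -1.01 in control; 5 fell with all 12 libraries, and in the control arm 3 fell and 1 rose. Smooth muscle actin (Acta2; chr19:34241090-34255590, minus strand) measured 2940.4 and 2963 CPM at day 0 and 279 and 325 CPM at day 14, 9.71-fold less (log2 change -3.28 ± 0.07; adjusted p = 3.0e-14). The myosin light chain Myl9 went from 168 and 175 CPM to 11.1 and 13.3 CPM and calponin (Cnn1) from 9.52 and 8.99 CPM to 0.272 and 0.681 CPM. Desmin (Des) was the member that rose, from 4.14 and 3.4 CPM to 7.54 and 8.76 CPM. Acta2 also fell in control, from 2991 and 3006 CPM to 365 and 825 CPM, and the difference between the arms was not called (adjusted p = 0.67). The muscle regulators Myocd and Myog had 0 counts in all 4 libraries.

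Of 21 targets of YAP and of SRF in the cytoskeleton, 17 fell, 13 of them at least 2-fold, and 3 rose; 2 rose and 12 fell with all 12 libraries, and in the control arm 1 rose and 2 fell. Vinculin (Vcl; chr14:20929398-21033676, plus strand), the focal adhesion protein whose promoter with its CArG box is shown above, went from 413 and 430.2 CPM to 93.6 and 90.4 CPM, a log2 change of -2.19 ± 0.05 (adjusted p = 1.9e-25). The LIM protein Fhl1 went from 100.4 and 101 CPM to 18.1 and 23.1 CPM. A pair of matricellular genes usually named together as YAP targets parted: Ccn1 went from 636 and 698 CPM to 91.7 and 78 CPM, a log2 change of -2.96 ± 0.07, and Ccn2 (connective tissue growth factor) from 49.9 and 56.9 CPM to 413 and 482 CPM, a change of 3.08 ± 0.11. The receptor kinase Axl rose from 437 and 447 CPM to 806 and 829 CPM, and the kinase Nuak2 from 5.38 and 10.2 CPM to 13.8 and 12.5 CPM, where the call was lost with all 12 libraries (adjusted p = 0.2).

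Most mitotic genes fell. Of 30 tested 27 fell, 16 of them at least 2-fold, and the other 3 did not pass the test; the median log2 change was -1.09, and -1.05 in the control arm. The proliferation marker Mki67 (chr7:135689784-135716361, minus strand) measured 162 and 168 CPM at day 0, 59.9 and 60.9 CPM at day 14 and 88.3 and 126 CPM at day 21, with a log2 change to day 14 of -1.44 ± 0.20 (adjusted p = 0.0081). Cdc20 (chr4:118432901-118437352, minus strand), the activator of the anaphase-promoting complex, went from 29.4 and 31.2 CPM to 12.1 and 11.3 CPM, and the kinetochore protein Cenpf from 47.5 and 49.9 CPM to 20.3 and 19.4 CPM. The summed level went from 1379 and 1425 CPM to 729 and 711 CPM, and at day 21 it was 998 and 1357 CPM, when 26 members were higher than at day 14. With all 12 libraries 2 members, Cdc25c and Anln, were called, and Mki67 (adjusted p = 0.059), Cdc20 and Cenpf were not. The call of Mki67 was also lost when any 1 of the 4 libraries was left out (adjusted p from 0.051 to 0.075).

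Genes of DNA replication changed less, with 17 of 30 tested falling, 3 rising, none of the 20 by 2-fold, and a median log2 change of -0.40, against -1.10 in the control arm. Leaving out 1 library gave between 12 and 20 falls, and edgeR called 0 members with all 12 libraries, with 2 of the 30 at an unadjusted p below 0.05. Uhrf1, which carries DNA methylation through replication, went from 91.9 and 88.1 CPM to 45.1 and 50.9 CPM and cyclin A2 (Ccna2) from 37.7 and 41.2 CPM to 22.9 and 22 CPM. Members that rose were Dut, which clears dUTP, from 37.3 and 36 CPM to 61.5 and 66.3 CPM, the licensing factor Cdt1 from 40.1 and 45.3 CPM to 56 and 58.3 CPM, and Pcna from 151 and 159 CPM to 167 and 172 CPM (adjusted p = 0.028), a call lost when any 1 of the 4 libraries was left out.

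Brakes of the cell cycle did not move as a group: 10 of 21 tested rose and 7 fell, and 2 rose and 3 fell with all 12 libraries. Mdm2, the p53 target that degrades p53, went from 324 and 321 CPM to 692 and 704 CPM, a log2 change of 1.12 ± 0.05, and the antiproliferative gene Btg1 from 232 and 227 CPM to 410.0 and 389 CPM. Its relative Btg2 went down, from 92.8 and 115 CPM to 20.8 and 21.6 CPM. The kinase inhibitors Cdkn2c (p18) and Cdkn1b (p27) fell, from 83.7 and 94 CPM to 27.6 and 25.1 CPM and from 130.3 and 133 CPM to 60.2 and 59.5 CPM. Gadd45b rose from 19.1 and 22.7 CPM to 45.6 and 46 CPM; its call and that of Btg2 were lost with all 12 libraries, at adjusted p of 0.081 and 0.078.

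Wnt signalling genes mostly fell. Of 32 tested 21 fell, 13 at least 2-fold, and 6 rose, with a median log2 change of -0.90 against -0.09 in control; 2 rose and 13 fell with all 12 libraries. Besides the antagonist Sfrp2, the agonist Rspo2, which holds Wnt receptors at the cell surface, went from 88.6 and 84.7 CPM to 5.75 and 7.2 CPM, a log2 change of -3.74 ± 0.21, and the ligand Wnt5b from 6.37 and 7.03 CPM to 1.42 and 1.69 CPM. The R-spondin receptor Lgr6 moved the opposite way, from 0.514 and 0.913 CPM to 72.8 and 89.4 CPM and 178 and 186 CPM at day 21, a log2 change to day 14 of 6.81 ± 0.17 (adjusted p = 5.8e-13). The secreted inhibitor Wif1, named after its values were seen, had 0 counts at day 0 and 167 at day 14. Beta-catenin (Ctnnb1) went from 836 and 841 CPM to 1017 and 965 CPM and Notum, an enzyme that inactivates Wnts, from 2.99 and 2.79 CPM to 5.85 and 5.39 CPM, neither called with all 12 libraries.

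BMP and TGF-beta genes were evenly divided, 15 of 37 tested rising and 15 falling, 8 at least 2-fold in each direction; 5 rose and 7 fell with all 12 libraries. Among those that rose was the TGF-beta target Skil, from 41.6 and 42.2 CPM to 169.5 and 166 CPM (log2 change 2.01 ± 0.05). Id4, a dominant negative helix-loop-helix factor that promotes osteoblast fate, went from 417 and 459.6 CPM to 60.6 and 51.4 CPM, a log2 change of -2.96 ± 0.10, and the BMP antagonist Chrdl1 from 99.4 and 104 CPM to 17.9 and 21.9 CPM. With all 12 libraries the call of Chrdl1 was lost (adjusted p = 0.074).

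In the IGF axis 9 of 13 tested fell and 4 rose, and 1 rose and 4 fell with all 12 libraries. Igf1 went from 57.5 and 58.6 CPM to 10.5 and 11.1 CPM, a log2 change of -2.42 ± 0.11, the binding protein Igfbp5 from 858 and 895 CPM to 152 and 114 CPM, and the adaptor Irs1 from 229 and 241 CPM to 77.2 and 75.3 CPM. Pappa, the protease that frees IGF from its binding proteins, rose from 63.5 and 67.7 CPM to 149 and 150.4 CPM, and Igfbp7 from 118 and 118 CPM to 223 and 234 CPM; only the latter was called with all 12 libraries. Of 12 Notch genes 8 fell and 2 rose, with 1 rising and 2 falling when all 12 libraries were fitted, and 1 rising without day 0 replicate 2 or day 14 replicate 2. The receptor Notch3 went from 81.6 and 86.5 CPM to 37 and 36.6 CPM, and the ligand Dll1 from 10.2 and 11.8 CPM to 5.2 and 3.76 CPM and the glycosyltransferase Lfng from 9.97 and 10.9 CPM to 5.01 and 5.09 CPM without a call in the 12-library fit.

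Axon guidance ligands and receptors fell in 15 of 26 cases and rose in 5, with a median log2 change of -0.76; 1 rose and 9 fell with all 12 libraries. Sema3c went from 603 and 612 CPM to 87.3 and 88.4 CPM, a log2 change of -2.78 ± 0.05 (adjusted p = 2.6e-28), Slit2, the ligand of Robo receptors, from 414 and 428 CPM to 82 and 83.1 CPM, and the ephrin Efna5 from 39.5 and 39.1 CPM to 6.86 and 8.3 CPM. The netrin receptor Unc5b rose from 17.2 and 20.3 CPM to 63 and 64 CPM. These 4 genes were called in the same direction in the control arm, with log2 changes of -2.00, -2.23, -1.72 and 2.57.

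Most glucocorticoid target genes rose. Of 19 tested 15 rose, 10 at least 2-fold, and 2 fell, with a median log2 change of 1.48, against 1.71 in control; 10 rose and 1 fell with all 12 libraries, and the same numbers were called in the control arm. Fkbp5 (chr17:28399094-28517527, minus strand), a cochaperone of the glucocorticoid receptor, measured 36.2 and 33.4 CPM at day 0 and 581 and 544 CPM at day 14, 16.3-fold, a log2 change of 4.03 ± 0.06 (adjusted p = 7.9e-31). In control it went from 27.5 and 33.5 CPM to 1027 and 692 CPM, and the difference between the arms was not called (adjusted p = 0.48). Tsc22d3 (GILZ) went from 48.2 and 44.6 CPM to 537 and 499 CPM. The receptor gene itself, Nr3c1, fell from 303 and 324 CPM to 92.6 and 86.1 CPM, and Dusp1, a phosphatase also induced by serum, from 333 and 359 CPM to 81.7 and 69 CPM; the call of Dusp1 was lost with all 12 libraries (adjusted p = 0.087). The labels do not say what the induction medium held.

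Clock genes were mixed, with 6 of 16 tested rising and 8 falling, beside 28.1% and 25.5% of all genes, and 3 falling with all 12 libraries. These were the output factors Dbp, from 12 and 14.8 CPM to 2.1 and 1.88 CPM, and Tef, from 159.7 and 157 CPM to 57.1 and 58.1 CPM, and the repressor Per3, from 33.2 and 29.3 CPM to 5.56 and 5.74 CPM. Per1, Nfil3 and Bhlhe40 rose, Per1 from 43 and 39.9 CPM to 68.3 and 64.9 CPM, without a call in that fit. The labels used here give no time of harvest.

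**Figure D4:**
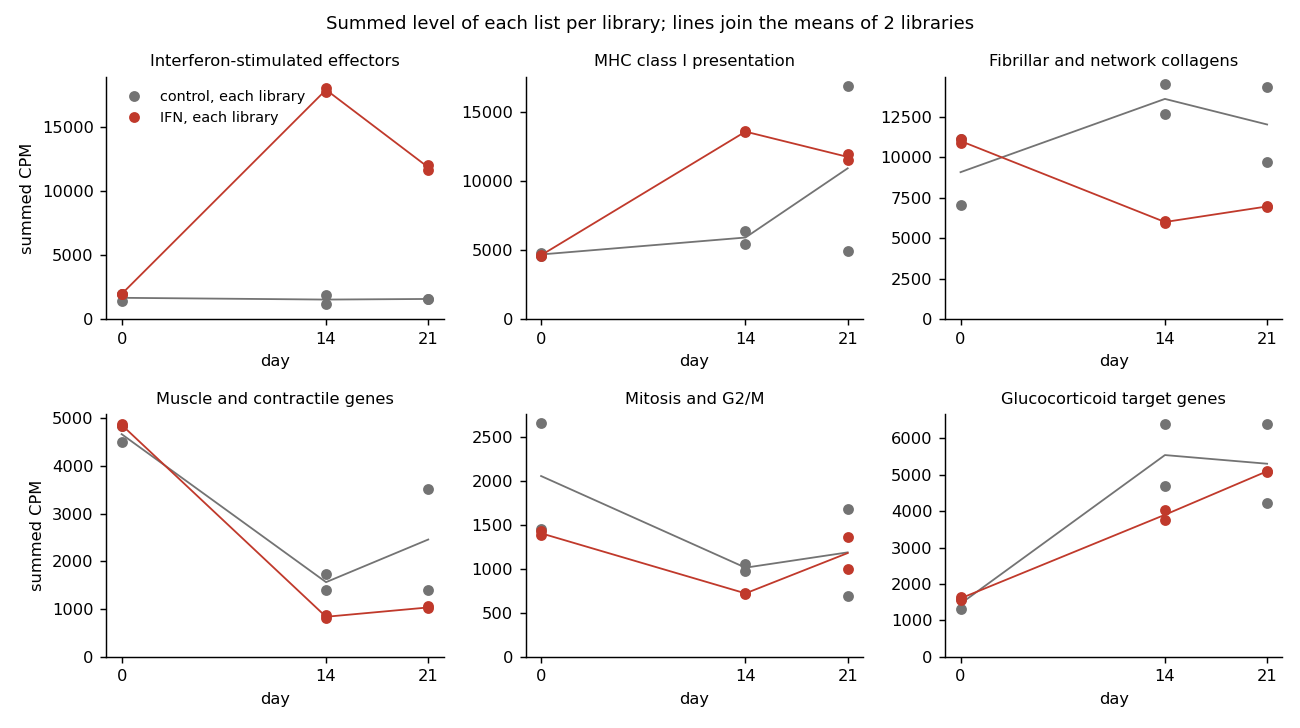
Summed CPM of 6 gene groups in each library (points) of the control (grey) and IFN (red) arms at days 0, 14 and 21, with lines through the means of 2 libraries. The interferon-stimulated sum rises from 1973 to 18070.5 CPM between the lowest IFN library of day 0 and the highest of day 14 and the collagen sum falls, while the contractile and glucocorticoid target sums move in the same direction in both arms by day 14.

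Of 28 immediate early and heat shock genes tested 17 fell, 11 at least 2-fold, and 10 rose; 5 fell with all 12 libraries. Fos (chr12:85473890-85477273, plus strand) measured 354 and 395 CPM and then 10.1 and 7.95 CPM, a log2 change of -5.35 ± 0.09, and Fosb 379 and 403 CPM and then 8.11 and 5.61 CPM. Egr1 went from 550.4 and 673 CPM to 159 and 159.5 CPM, and the flow-sensing factor Klf2 from 57.5 and 66.9 CPM to 4.63 and 3.47 CPM. At day 21 Fos stood at 116 and 123 CPM and Egr1 at 1166 and 951 CPM. Fosl1, a late member of the Fos family, and Myc rose, from 13.2 and 14.7 CPM to 77.1 and 70.0 CPM and from 53.9 and 53.7 CPM to 117 and 122 CPM, as did the small heat shock protein Hspb8, from 229 and 223 CPM to 434 and 409 CPM. The control day 0 libraries differed widely in these genes, with Fos at 2.22 and 407 CPM. The calls of Fos, Egr1, Fosl1, Myc and Hspb8 were lost with all 12 libraries, at adjusted p from 0.055 to 0.31.

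Genes of the endoplasmic reticulum rose by moderate amounts. Of 27 chaperones and unfolded protein response genes 22 rose, 5 at least 2-fold, and 3 fell, with a median log2 change of 0.67 against 0.25 in control. The chaperone Hspa5 (BiP; chr2:34771970-34777547, plus strand) measured 843 and 865 CPM at day 0, 1796 and 1827 CPM at day 14 and 1094 and 1112 CPM at day 21, with a log2 change to day 14 of 1.10 ± 0.04 (adjusted p = 1.7e-19). The stress factor Ddit3 (CHOP) went from 68.7 and 68.4 CPM to 357 and 338 CPM, a log2 change of 2.35 ± 0.05, and the disulfide isomerase Pdia4 from 154 and 159 CPM to 342 and 344 CPM. Chac1, which degrades glutathione, fell from 73.3 and 66 CPM to 32.7 and 32.3 CPM. From day 14 to day 21, 19 of the 27 fell. With all 12 libraries edgeR called 0 of them, and 1 reached an unadjusted p below 0.05. In that fit control day 21 replicate 2 stood apart, the list summing to 7227 and 76034 CPM in the control libraries of day 21, and the part of that library in the lost calls was not tested; Ddit3 then had an adjusted p of 0.11 and Hspa5 of 0.51.

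Iron handling and oxidative defence genes rose in 17 of 26 cases, 10 at least 2-fold, and fell in 6, with a median log2 change of 0.78 and 0.15 in control; 4 rose and 3 fell with all 12 libraries. The subunits of the enzyme that starts glutathione synthesis rose, Gclc from 196 and 188 CPM to 1371 and 1303 CPM, a log2 change of 2.81 ± 0.05 (adjusted p = 1.6e-28), and Gclm (chr3:122245557-122270732, plus strand), whose promoter is shown above, from 74 and 71.5 CPM to 267 and 242 CPM, a change of 1.82 ± 0.05. Heme oxygenase (Hmox1) went from 110.4 and 111 CPM to 591 and 539 CPM. Glutathione transferases went the opposite way, Gsta4 from 43 and 42.8 CPM to 16.9 and 12.9 CPM and Gstm2 from 67 and 72.6 CPM to 26.6 and 32.1 CPM, as did the peroxidase Gpx1, from 213 and 216 CPM to 113 and 114 CPM. The calls of Hmox1 (adjusted p = 0.2) and Gclm (adjusted p = 0.068) were lost with all 12 libraries, where Hmox1 stood at 513 and 119 CPM in the control libraries of day 0.

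Lysosomal and autophagy genes rose in 17 of 28 cases and fell in 6, with a median log2 change of 0.18; 5 rose and 2 fell with all 12 libraries. Alpha-galactosidase (Gla) went from 43.2 and 43.3 CPM to 181 and 183 CPM, a log2 change of 2.08 ± 0.06, the lysosomal cholesterol exporter Npc1 from 132 and 135 CPM to 371 and 352 CPM, and the collagen-degrading protease cathepsin K (Ctsk) from 193 and 208 CPM to 523 and 511 CPM, though Ctsk was not called with all 12 libraries (adjusted p = 0.16). Tfeb, a master factor of lysosomal genes, fell from 17.2 and 17 CPM to 8.11 and 9.05 CPM and Map1lc3a from 51.9 and 53.5 CPM to 27.6 and 27.8 CPM.

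Of 26 glycolytic and hypoxia genes 15 rose, 3 at least 2-fold, and 6 fell, with a median log2 change of 0.20, and 1 rose with all 12 libraries. That gene was hexokinase 2 (Hk2), from 57.5 and 63 CPM to 186 and 174 CPM. The growth factor Vegfa went from 274 and 287 CPM to 495 and 501 CPM, while the hypoxia targets Pdk1 and Egln3 fell, from 68.1 and 64.2 CPM to 39 and 31.4 CPM and from 11.5 and 11.6 CPM to 5.5 and 5.06 CPM. Bnip3 (chr7:138890836-138909519, minus strand), a mitophagy receptor induced by hypoxia, measured 44 and 47.7 CPM and then 60.2 and 54.8 CPM, a log2 change of 0.34 ± 0.07; the control libraries of day 14 stood at 626 and 91.2 CPM, with replicate 1 far above replicate 2. Nuclear genes of oxidative phosphorylation were nearly level, 4 of 30 rising and 10 falling, none by 2-fold, with a median of -0.03, and with 6 falls without day 14 replicate 1. Cox5a, at 32.4 and 34.1 CPM and then 44 and 49.2 CPM, and Sdhc, at 113 and 118 CPM and then 87.5 and 87 CPM, mark the range of that group. Over all genes 28.1% rose and 25.5% fell. In the 12-library fit edgeR called 0 of the 30, with 1 at an unadjusted p below 0.05.

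Lipid synthesis genes were lower more often than higher, 13 of 29 falling and 5 rising, with 8 falls without day 0 replicate 2 or day 14 replicate 2 and 1 fall with all 12 libraries. That 1 was Elovl6, which elongates palmitate, from 184 and 201 CPM to 24 and 25.9 CPM, a log2 change of -2.94 ± 0.07 (adjusted p = 1.3e-25). Scd2, a fatty acid desaturase, went from 845 and 889 CPM to 413 and 359 CPM (adjusted p = 0.052 with all 12 libraries) and fatty acid synthase (Fasn) rose from 201 and 200.5 CPM to 291 and 292 CPM. Ribosomal protein genes rose slightly, 22 of 41, with 2 falling, no change of 2-fold and a median of 0.13. Rps14 had the largest of these changes, from 217 and 216 CPM to 329 and 339.7 CPM, and Rpl3 fell from 805 and 814 CPM to 697 and 691 CPM. Without day 0 replicate 1 the count was 14 rises, and with all 12 libraries edgeR called 0 of the 41, with 2 at an unadjusted p below 0.05.

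Markers of other cell types showed no full program. Of the macrophage and osteoclast markers 5 could be tested, and 3 rose and 1 fell: Mpeg1, a perforin of phagocytes, from 0.604 and 0.36 CPM to 12.1 and 14.2 CPM, Cd68 from 1.84 and 1.6 CPM to 5.04 and 4.74 CPM, Ctsk as above, and the lysozyme Lyz2, which fell from 26.8 and 28.5 CPM to 9.5 and 9.6 CPM. The leukocyte marker Ptprc had 0 counts at day 0 and 4 at day 14, Adgre1 0 and 2, Csf1r 7 and 3, and the osteoclast genes Calcr and Dcstamp 0 in all 4 libraries. With all 12 libraries 1 rose and 1 fell, and the calls of Cd68 (adjusted p = 0.22) and Ctsk (adjusted p = 0.16) were lost. The list summed to 239 and 254 CPM at day 0 and 563 and 552 CPM at day 14, most of it Ctsk. Of 6 endothelial and epithelial markers 2 rose and 1 fell, beside 28.1% and 25.5% of all genes. The number of falls varied when 1 library was left out. With all 12 libraries edgeR called 0 of the 6, with 1 at an unadjusted p below 0.05. Vwf went from 7.34 and 8.22 CPM to 28.2 and 30.0 CPM and Cdh1 from 4.35 and 3.07 CPM to 1.74 and 2.21 CPM, while Cdh5 and Epcam had 0 counts in the 4 libraries. The sum of that list was 14 and 14.8 CPM at day 0 and 32.3 and 35 CPM at day 14.

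Adipocyte genes changed in 6 of 7 cases, 3 rising and 3 falling, and 3 rose and 2 fell with all 12 libraries. The fatty acid binding protein Fabp4 went from 0.846 and 0.968 CPM to 7.98 and 6.88 CPM, a log2 change of 3.04 ± 0.26, the glucocorticoid-induced factor Klf15 from 1.15 and 0.775 CPM to 6.18 and 8.27 CPM, and the lipid droplet protein Plin2 from 207 and 208 CPM to 703 and 699.8 CPM. Cd36 and Zfp423 fell, from 12.3 and 10.9 CPM to 3 and 1.78 CPM and from 36.3 and 34.1 CPM to 12.9 and 11.5 CPM. The defining regulator Pparg had 0 counts at day 0 and 7 at day 14, Adipoq 3 and 0, and Cfd, Lep and Retn 0 in all 4 libraries. Of 10 fibroblast and tendon markers 3 rose and 5 fell, beside 28.1% and 25.5% of all genes, and 2 fell with all 12 libraries. Pdgfra went from 244 and 238 CPM to 404 and 355 CPM and Fbln2 from 649 and 662 CPM to 982 and 971 CPM, neither called with all 12 libraries. Vimentin (Vim) went from 2326 and 2421 CPM to 1320.4 and 1310.0 CPM.

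The changes of the IFN arm were then set against those of the control arm, which share no libraries. Of the 2670 genes called at least 2-fold in the IFN arm and present in both fits, 2199 had the same sign in the control arm, 278 were called there in the same direction and 1, Pax5, in the opposite one. The share of all genes with the same sign was not computed, so the 2199 cannot be read as particular to the called genes. The control arm had 411 calls among 17289 genes (2.38%), 268 higher (1.55%) and 143 lower (0.827%). These control calls come from the fit of all 12 libraries, in which the IFN arm had 1857 calls (10.7%). The 2670 come from the fit of the IFN libraries alone, whose spread was smaller, so the 278 are not set against a like number. Across 16234 genes, which are not independent replicates, the 2 sets of changes had a Pearson r of 0.525 and a Spearman rho of 0.434. At day 0 edgeR called 1 gene (0.00578%) between the arms, Bpifc, which had 0 CPM in both IFN libraries. The 2 control libraries of day 0 differed widely, with a median chi-square per gene of 22.2 against 1.88 for IFN day 0. The arms are therefore not shown to be alike at day 0. Pax5 and Bpifc are low in level and were named after their values were seen. The test of the difference itself, the change of the IFN arm minus that of the control arm, called 103 of 17289 genes (0.596%), 75 higher (0.434%) and 28 lower (0.162%) in the IFN arm. Leaving out 1 library gave between 16 calls and 492, the latter without control day 0 replicate 2, with 226 higher and 266 lower. With 2 control libraries dropped together, day 0 replicate 1 and day 21 replicate 2, an alternative chosen after seeing the data, 312 were higher and 289 lower. The median SE of the difference was 0.44 on the log2 scale, against 0.12 for the change within the IFN arm, so that a gene outside the 103 is not shown to change alike in both arms.

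Of the interferon-stimulated effectors 31 were among the 75 genes with the greater change in the IFN arm. The 5 highest whose log2 CPM averaged at least 1 were Irf7, Ifit3, Ifit3b, Tgtp1 and Rsad2. Irf7 stood at 2.83 and 2.69 CPM at day 0 and 3.17 and 6.71 CPM at day 14 in control, and its difference between arms was 6.57 ± 0.51 on the log2 scale (adjusted p = 0.00097). For Ifit3 the control values were 13.4 and 26.9 CPM and 3.11 and 14.4 CPM and the difference 6.37 ± 0.87 (adjusted p = 0.013), and for Rsad2 they were 0.554 and 1.08 CPM and 1.01 and 3.52 CPM with a difference of 5.88 ± 0.83 (adjusted p = 0.015). Isg15 (4.40 ± 0.82), Irf9 (2.62 ± 0.29), Stat2 (3.05 ± 0.42), Cxcl10 (5.22 ± 0.69) and H2-T22 (2.57 ± 0.29) were called too. Other strongly changed genes were not: Ifit1 had a difference of 4.60 ± 1.14 (adjusted p = 0.15) and Oas2 of 2.67 ± 1.48 (adjusted p = 0.55). Their control libraries spread widely, with Ifit1 at 2.68 and 25.8 CPM and Oas2 at 3.81 and 59.4 CPM at control day 14, replicate 2 above replicate 1 in both.

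Outside the interferon lists, Axl had a greater change in the IFN arm by 1.42 ± 0.23 (adjusted p = 0.027), with control at 559 and 467 CPM and then 337 and 369.6 CPM. The 5 genes of the same level whose change was lowest in the IFN arm relative to control were Megf6, Tnn, Mrgprf, Tnc and Plekhg4. Tenascin C (Tnc; chr4:63959785-64047015, minus strand), a matricellular protein of growing and healing tissue, measured 23.1 and 37.2 CPM and then 192 and 451 CPM in control but 34.1 and 36 CPM and 35.7 and 28.7 CPM in the IFN arm, where it did not pass the test (adjusted p = 0.67); the difference was -3.54 ± 0.53 (adjusted p = 0.02). Its relative Tnn reached 175 and 148 CPM in control at day 14, from 1.42 and 1.96 CPM, a difference of -4.05 ± 0.46 (adjusted p = 0.0038). Megf6, a secreted EGF-repeat protein, went down in the IFN arm, from 20.1 and 17.9 CPM to 1.88 and 2.04 CPM, and stood at 6.98 and 16.9 CPM and then 42.5 and 25.9 CPM in control (adjusted p = 0.026). The orphan receptor Mrgprf went from 13.2 and 12 CPM to 0.654 and 0.389 CPM and the exchange factor Plekhg4 from 19.4 and 16.6 CPM to 3.95 and 2.63 CPM, with differences of -3.79 ± 0.68 and -3.02 ± 0.51.

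Of the collagens 3 were among the 28, Col5a2 and Col12a1, named after their values were seen, and Col11a1, with a difference of -2.83 ± 0.50 (adjusted p = 0.039). For Col1a1 the difference was -2.80 ± 0.59 and was not called (adjusted p = 0.084), as for Col3a1, at -3.18 ± 0.92 (adjusted p = 0.22). Control day 0 replicate 1 lay well below replicate 2 for both, at 2573 and 5953 CPM for Col1a1 and 751 and 1628 CPM for Col3a1. Ibsp went from 0 and 0 CPM to 22 and 12.5 CPM in the control arm, and its difference was not called (adjusted p = 0.44). For Mki67, which stood at 305 and 161 CPM and then 73.8 and 135 CPM in control, the difference was -0.29 ± 0.60 (adjusted p = 0.91).

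**Figure D5:**
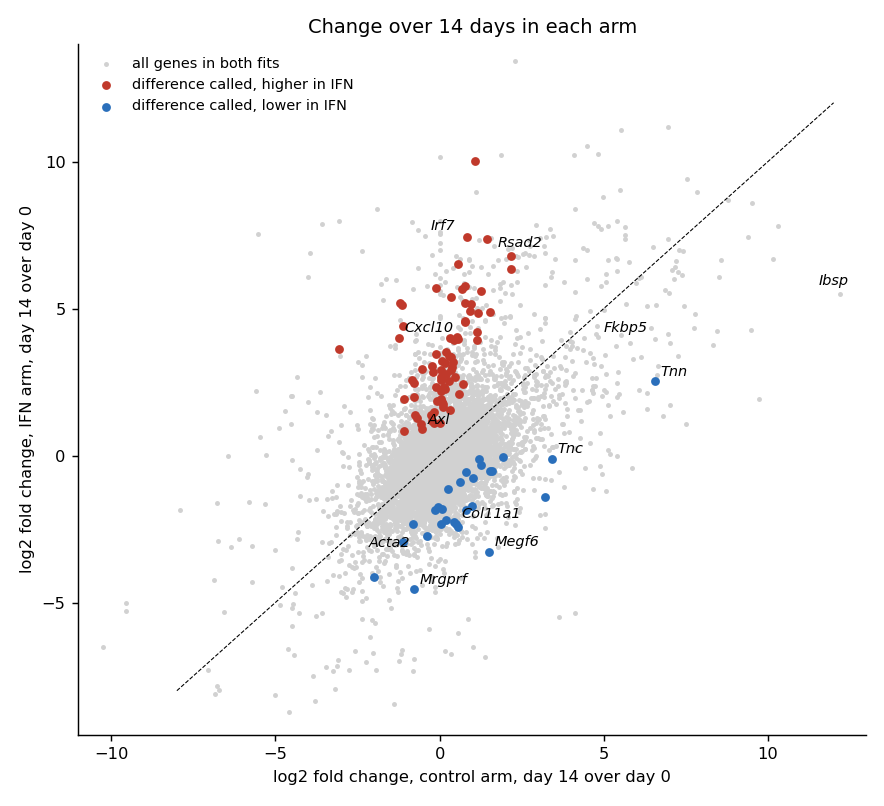
Log2 fold change of day 14 over day 0 in the IFN arm (vertical) against the control arm (horizontal) for the genes in both fits, with the dashed line at equal change and the genes whose difference was called in red (75 higher in the IFN arm) and blue (28 lower). Irf7, Rsad2 and Cxcl10 lie far above the line, Tnc, Tnn and Megf6 below it, and Fkbp5 and Acta2 near it.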

How the data were processed

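The deposited table holds whole-number read counts per gene for 12 libraries. The submitters' processing notes name HISAT2, SAMtools, featureCounts and the genome build mm10, without saying what each was used for. Versions, annotation and strand setting are not given in the sources used here, so reads of near-identical copies, overlapping genes and antisense genes may be split or shared. Per the labels, mRNA was purified from total RNA with Dynabeads.

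Counts were tested with edgeR 4.0.16 in R 4.3.3 (quasi-likelihood, robust, TMM scaling, low counts removed with filterByExpr, Benjamini-Hochberg threshold 0.05) on the 6 IFN libraries, 2 for each of days 0, 14 and 21 by their labels; the difference between arms, the control arm and the day 0 contrast were tested on all 12. CPM use TMM factors of all 12 libraries, and log2 CPM a prior count of 2. Intervals and floors cover counting error only. The code was tested on simulated data. Gene positions come from GENCODE M21 on GRCm38, which holds 53292 of the 55291 symbols, and promoters from RefSeq. Alternatives were RLE scaling, library size only, DESeq2 1.42.0, 2 other filters, a replicate block, other sets of libraries and leave-one-out; a fit without 2 control libraries was added after seeing the data.

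The members and the 38 gene lists were chosen with earlier results of these data known. Named were 25 genes always, the 10 highest and 10 lowest called genes without overlap, up to 3 at each end of every list, and 5 at each end of the difference between arms, all averaging a log2 CPM of at least 1; predicted genes were counted only, and a few genes that the rule names are not reported here. Chosen after their values were seen were CT010467.1, Fn1, Ccn3, Fth1, Ly6e, Rnf213, Hmga2, Irf3, H2-M3, B2m, Tap1, Psmb9, Nlrc5, Oasl1, Wif1, Cdc25c, Anln, Col5a2, Col12a1, Pax5 and Bpifc, the genes at 0 or few counts among the markers, and the genes of the closing section.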

Additional observations from a re-analysis of the deposited data

Results flagged for a closer look

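The change from day 0 to day 14 differed between the IFN and control arms in 103 genes by the test of the difference itself (edgeR quasi-likelihood, Benjamini-Hochberg). Among the named genes, the change was higher in the IFN arm for Irf7 (6.57, adjusted p = 0.00097), Ifit3 (6.37, 0.013), Ifit3b (6.23, 0.025), Tgtp1 (5.92, 0.031), Rsad2 (5.88, 0.015), Cxcl10 (5.22, 0.012), Isg15 (4.40, 0.048), Stat2 (3.05, 0.013), Irf9 (2.62, 0.0037), H2-T22 (2.57, 0.0037) and Axl (1.42, 0.027), each given as the log2 difference of the 2 changes and its adjusted p. It was lower for Megf6 (-4.79, 0.026), Tnn (-4.05, 0.0038), Mrgprf (-3.79, 0.042), Tnc (-3.54, 0.02), Plekhg4 (-3.02, 0.031) and Col11a1 (-2.83, 0.039).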

How the results depend on the processing

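The count of 8715 genes rests on the spread within the IFN arm: with all 12 libraries it was 1857, and the 2675 genes called at least 2-fold became 1354. Leaving out 1 IFN library at a time gave 7379 to 9285 and 2401 to 2817. The 103 differences between the arms became 62 with library size only, 446 with DESeq2 and 829 without a filter on low counts. Leaving out 1 library gave 16 to 492: 83 and 492 without control day 0 replicate 1 or 2, 40 and 204 for control day 14, 354 and 344 for control day 21, 18 and 16 for IFN day 0, 20 and 19 for IFN day 14, and 36 and 36 for IFN day 21. Leaving both control day 0 replicate 1 and day 21 replicate 2 of control out, an alternative chosen after seeing the data, called 601, with 312 higher and 289 lower. The cause of these shifts was not tested. Of the 231 named genes in the fit 227 were called, 104 lost the call with all 12 libraries, and 18 lost it or changed sign under another alternative. Leaving out 1 library moved the log2 change of Bglap between -0.49 and 0.198, the latter without IFN day 0 replicate 1 (adjusted p = 0.82), and that of Tnc between -0.27 and 0.037, the latter without IFN day 14 replicate 2 (adjusted p = 0.91); neither was called with all 6 IFN libraries.

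With the replicate number as a block, edgeR called 8781 genes for the IFN arm, day 14 against day 0. The count for the IFN arm, day 14 against day 0, called and at least 2-fold was 2639, and 72 differences between the arms were called. Deviations of same-numbered IFN libraries correlated at 0.0122, 0.0188 and -0.0109. Counting noise enters these deviations, so they cannot tell whether same-numbered libraries shared a culture or batch. The labels give only a replicate number.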

Other observations

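Several genes outside the gene lists were among the 103 whose change differed between the arms (edgeR quasi-likelihood, Benjamini-Hochberg); those below were chosen after their values were seen, and levels are mean CPM ± SD of 2 libraries. Cd274 (PD-L1), the ligand of the T cell checkpoint receptor PD-1, went from 3.97 ± 0.0597 at day 0 to 60.0 ± 3.25 at day 14 in the IFN arm and from 3.98 ± 0.328 to 8.71 ± 4.42 in control, a difference of 2.79 ± 0.47 on the log2 scale (adjusted p = 0.031). Adar, the enzyme that edits adenosine in double-stranded RNA, went from 45.1 ± 2.17 to 207 ± 0.167 in the IFN arm, with a difference of 2.15 ± 0.27 (adjusted p = 0.0079), and the cytosolic exonuclease Trex1 from 12.6 ± 0.661 to 32.7 ± 0.613, with a difference of 2.11 ± 0.38 (adjusted p = 0.042). The nuclear body proteins Pml and Daxx had differences of 1.95 ± 0.29 and 1.72 ± 0.20, and the mono-ADP-ribosyltransferases Parp10, Parp11 and Parp12 of 1.64 ± 0.26, 2.08 ± 0.32 and 2.43 ± 0.40.

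The change was lower in the IFN arm for 28 genes, of which 4 follow, also chosen after their values were seen. Endosialin (Cd248), a stromal cell receptor, went from 123 ± 8.77 to 18.2 ± 0.233 in the IFN arm and from 96.8 ± 41.4 to 73.8 ± 19.8 in control, a difference of -2.37 ± 0.40 (adjusted p = 0.032). Adamts9, a matrix protease, went from 25.7 ± 0.321 to 7.8 ± 0.796 in the IFN arm and from 22.6 ± 5.34 to 44.7 ± 19 in control (difference -2.70 ± 0.43, adjusted p = 0.026). Differences for the Hedgehog coreceptor Cdon and the muscle filament protein synemin (Synm) were -1.73 ± 0.32 and -2.71 ± 0.45.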
